A study of Mus musculus with 12 samples.

Results

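Chaperones and protein disulfide isomerases, the proteins that fold other proteins, were followed in mouse bone marrow-derived macrophages (BMDMs) treated with DMSO, with olaparib or with methyl-nicotinamide (MNA). Members were all genes named as heat shock proteins of the Hspa, Hspb, Hspd, Hspe, Hsph or Hsp90 families, as J-domain proteins (Dnaja, Dnajb and Dnajc), as protein disulfide isomerases (Pdia) or as numbered subunits of the cytosolic chaperonin (Cct2 to Cct8). Of the 35275 genes in the count files, 34490 could be given a name, and Hspa14, which fits these families, was not among them. After removal of 11 pseudogenes, 85 gene names remained, and 69 of them had a mean of at least 10 counts over the 12 libraries. These 69 members, out of 35275 genes in the count files, all passed the filter on low counts and were tested among 12849 genes. The other 16 lay under that mean, and 3 of them had no count in any library. Just inside the limit stood Hspb1 with a mean of 12.3 counts, and just outside it Hspa1l with 9.83.

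Each group held 4 libraries, numbered 1 to 4. All cells were wildtype and came from bone marrow of donors aged 6 to 10 weeks, female or male, and 4 donor mice were used. All were cultured for 6 days with M-CSF, IL-4 and IL-10, a mixture that drives macrophages to the M2 state. During these 6 days the groups received DMSO, the solvent control, olaparib, an inhibitor of poly(ADP-ribose) polymerases, or MNA, a derivative of nicotinamide and thereby of NAD. The labels give no dose and no donor strain. The comparisons ask whether olaparib changes these macrophages, and whether MNA, without a PARP inhibitor, does the same. Levels are CPM (counts scaled to a common library size, after TMM scaling), or CPM per kilobase of exon (RPKM) where genes are compared with each other.

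The libraries held between 21146291 and 31446849 counts. In a principal component analysis of all tested genes, MNA replicate 2 lay with the DMSO libraries and far from the other MNA libraries, so the counts of calls are given with and without it. Without it the common dispersion of the counts fell from 0.0333 to 0.0123. The 7 macrophage markers summed to between 3864 and 5000 CPM with DMSO, between 8451 and 10185 CPM with olaparib, and between 3588 and 7393 CPM with MNA. The lowest MNA sum was that of replicate 2. Lyz2 was the largest part of the sum with olaparib, at 5114 to 6559 CPM, next to 1625 to 2532 with DMSO. Cd68 went the other way, at 813 to 869 CPM with olaparib and 1095 to 1309 with DMSO. The 8 neutrophil markers summed to at most 10.0 CPM with DMSO, at most 3.89 CPM with olaparib and at most 65.4 CPM with MNA. Both the 8 neutrophil markers and the 8 of lymphoid and erythroid cells were highest in MNA replicate 4, at 65.4 and 58.0 CPM, where DMSO and olaparib libraries reached at most 3.84 CPM for the latter. Dendritic cell markers summed to 17.5 to 26.6 CPM, stromal markers to at most 3.06 CPM and those of mast cells, basophils and eosinophils to at most 0.603 CPM. The part of these marker levels in the chaperone values was not tested. In bulk RNA, fewer cells of a type and less RNA per cell cannot be told apart.

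Chaperones of the Hsp70 family bind short stretches of unfolded protein and release them in a cycle driven by ATP, J-domain proteins deliver clients to them and start the cycle, and Hsp110 proteins exchange the nucleotide. Hsp90 acts later, on nearly folded kinases and receptors. In the endoplasmic reticulum (ER) these families have their own members, to which protein disulfide isomerases add the formation of disulfide bonds, and mitochondria hold a further Hsp70 together with the Hsp60 and Hsp10 chaperonin. Cytosolic chaperones are classically induced by heat shock factor 1, and ER chaperones by the unfolded protein response. Macrophages depend on the ER set for secreted and lysosomal proteins.

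Per length, Hsp90ab1, the constitutive Hsp90, was the most abundant member, with 459 RPKM with DMSO. It was followed by the mitochondrial Hsp70 Hspa9 (256 RPKM), the constitutive cytosolic Hsp70 Hspa8 (251 RPKM), the ER Hsp70 Hspa5 (181 RPKM) and the disulfide isomerase Pdia3 (158 RPKM). Hspa9 and Hspa8 were within the spread of the DMSO libraries of each other. The order changed with treatment, as Hspa9 averaged 141 RPKM with olaparib and 74.9 RPKM in the 3 MNA libraries other than replicate 2.

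With olaparib, 6 of the 69 members rose and 12 fell (edgeR's quasi-likelihood test, Benjamini-Hochberg adjusted p under 0.05 over 12849 genes). Of all genes tested, 14.3% rose and 12.8% fell. The members' median log2 fold change was -0.09, against 0.004 for all genes. Of the 69, 34 had olaparib and DMSO libraries that did not overlap, 12 of them higher and 22 lower with olaparib, while 41.0% of all genes did not overlap. With MNA, 6 members rose and 7 fell, next to 16.3% and 12.3% of all genes. When MNA replicate 2 was left out, 11 members rose and 23 fell with olaparib, where 22.5% and 21.2% of all genes did so. In the same fit 10 rose and 22 fell with MNA, where 27.2% and 26.9% of all genes did so, and 37 members did not overlap with DMSO, next to 54.2% of all genes.

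The 2 treatments share their DMSO libraries, so their values are given side by side. In the fit of all libraries, 4 members fell with both treatments (Dnaja3, Dnajc3, Pdia4 and Cct7), 1 rose with both (Dnajb13), 43 were called with neither, and none was called in opposite directions. Without MNA replicate 2 the numbers were 16, 7, 26 and again 0. The same overlap was not counted over all tested genes, so these numbers cannot show whether the members differ from other genes. With DESeq2, in place of edgeR, 7 members rose and 16 fell with olaparib, where 16.8% and 15.2% of all genes did so, and 7 rose and 7 fell with MNA, next to 18.9% and 15.7%. Fitted with the DMSO libraries alone, edgeR called 11 members up and 24 down with olaparib, next to 22.9% and 22.5% of all genes.

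**Figure D1:**
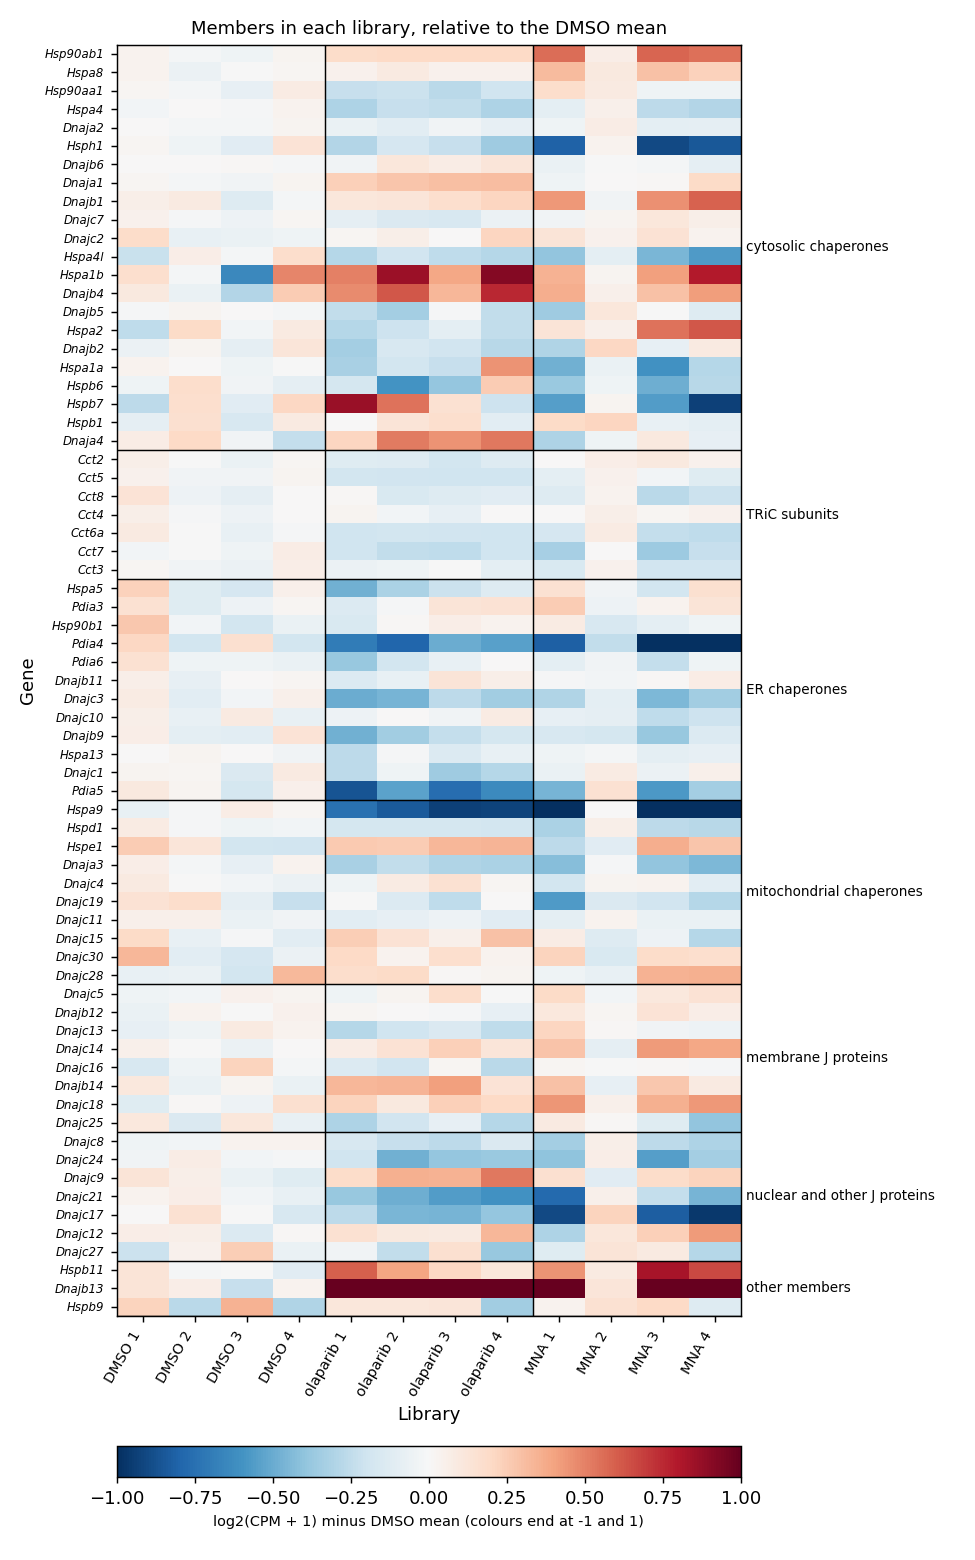
Level of each of the 69 members (rows, grouped by role and ordered by RPKM) in each of the 12 libraries (columns), as log2(CPM + 1) minus the mean of the 4 DMSO libraries; colours end at -1 and 1. MNA replicate 2 is pale, like the DMSO columns, while Hspa9, Hsph1 and Pdia4 are dark blue in the other 3 MNA libraries.

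The cytosolic chaperones, 22 members, moved in both directions with either treatment. With olaparib 3 rose (Dnaja1, Dnajb4 and Dnaja4) and 2 fell (Hsp90aa1 and Hspa4), 17 were not called, and the median change was 0.01 on the log2 scale. With MNA 3 rose (Hsp90ab1, Hspa8 and Dnajb1), 2 fell (Hsph1 and Hspa4l), and the median was 0.01. In the fit of all libraries 14.3% of all genes rose and 12.8% fell with olaparib, and 16.3% and 12.3% with MNA. With MNA replicate 2 left out, 5 rose and 5 fell with each treatment, with medians of 0.005 and -0.03. Of all genes, 22.5% rose and 21.2% fell with olaparib in that fit, and 27.2% and 26.9% with MNA.

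The Hsp90 pair parted. Hsp90ab1 (chromosome 17, 45567775 to 45573271 of GRCm38) read 1412, 1359.8, 1334 and 1399 CPM with DMSO, 1564, 1578, 1581 and 1576 with olaparib and 2025, 1445, 2064 and 2017 with MNA. All 8 treated libraries lay above the 4 DMSO libraries, and MNA replicate 2 was the lowest of the 8. With MNA the log2 fold change was 0.46 ± 0.10 (SE; edgeR adjusted p = 0.0158), and 0.56 without replicate 2 (edgeR adjusted p = 3.70e-07). With olaparib it was 0.19 ± 0.10 (edgeR adjusted p = 0.171), which passed the threshold only without MNA replicate 2 (edgeR adjusted p = 0.00318).

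The inducible partner Hsp90aa1 read 436, 424, 407 and 454 CPM with DMSO and 366, 370.4, 356 and 374 CPM with olaparib, so that all olaparib libraries were lower. Its log2 fold change with olaparib was -0.23 ± 0.065 (edgeR adjusted p = 0.0225). With MNA it read 485, 457, 418 and 416 CPM, which overlapped DMSO, and the log2 fold change was 0.05 ± 0.065 (edgeR adjusted p = 0.604). Of the 31-base words in Hsp90aa1 transcripts, 51.5% also occur in another gene, mainly Gm12346, against 13.2% for Hsp90ab1, so the split of reads between copies is uncertain for the former.

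Among the cytosolic Hsp70 genes, Hspa8 was higher with MNA. It read 1108, 1039, 1077 and 1095 CPM with DMSO, 1112, 1150.4, 1111 and 1109.6 with olaparib and 1341, 1152, 1320.4 and 1267 with MNA, the lowest MNA value again being replicate 2. The log2 fold change with MNA was 0.23 ± 0.065 (edgeR adjusted p = 0.0251, or 3.56e-04 without replicate 2) and with olaparib 0.05 ± 0.065 (edgeR adjusted p = 0.558), although the olaparib libraries did not overlap with DMSO. Other genes, mainly Gm15459, share 44.8% of its words.

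The inducible Hsp70 genes Hspa1a and Hspa1b, the textbook targets of heat shock, were low in every library, at 4.69 to 5.02 and 6.00 to 14.4 CPM with DMSO, and passed the threshold in no contrast of the fit of all libraries, although Hspa1a was lower with MNA without replicate 2 (edgeR adjusted p = 0.0377). Hspa1b read 14.5, 18.8, 13.3 and 19.6 CPM with olaparib (log2 fold change 0.68 ± 0.24, edgeR adjusted p = 0.0578), and passed it with the replicate number as a block (edgeR adjusted p = 0.0205). As 68.1% of the words of Hspa1b occur elsewhere, mostly in Hspa1a, the 2 genes cannot be cleanly separated. Hspa2, a further Hsp70, read 5.91, 8.43, 7.10 and 7.78 CPM with DMSO, 5.76, 6.13, 6.73 and 5.96 with olaparib and 8.02, 7.56, 11 and 11.7 with MNA, and neither treatment differed from DMSO past the threshold in that fit (edgeR adjusted p = 0.254 and 0.0805), the latter called higher without replicate 2 (edgeR adjusted p = 0.0128).

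Each of the 3 Hsp110 genes, which exchange nucleotide on Hsp70, fell in 1 contrast with DMSO. Hsph1 read 279, 268, 255 and 303 CPM with DMSO and 225, 246, 235 and 215 CPM with olaparib. In MNA replicates 1, 3 and 4 it read 157, 147 and 152 CPM, and 282 CPM in replicate 2. Every treated library but that one lay under the lowest DMSO library. With MNA the log2 fold change was -0.58 ± 0.18 (edgeR adjusted p = 0.0319) and -0.86 without replicate 2 (edgeR adjusted p = 2.29e-07). With olaparib it was -0.26 ± 0.18 (edgeR adjusted p = 0.277, or 0.00371 without MNA replicate 2).

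Hspa4, of the same family, read 327, 334, 331 and 341 CPM with DMSO, 269, 284, 282 and 269 with olaparib and 311, 345, 278 and 271 with MNA, so that all olaparib libraries were under all DMSO libraries. Its log2 fold change with olaparib was -0.27 ± 0.074 (edgeR adjusted p = 0.0195) and with MNA -0.15 ± 0.074 (edgeR adjusted p = 0.144, or 0.00585 without replicate 2). Hspa4l, the third of them, read 62.6, 76.3, 72.2 and 82.4 CPM with DMSO, 59.6, 63.8, 61.0 and 59.8 with olaparib and 55.3, 68.0, 52.9 and 49.1 with MNA, with a log2 fold change of -0.38 ± 0.10 with MNA (edgeR adjusted p = 0.0231, or 1.56e-04 without replicate 2).

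The 3 cytosolic members that rose with olaparib were J-domain cochaperones. Dnaja1, a partner of Hspa8, read 123, 119, 118 and 124 CPM with DMSO, 143, 147, 149.5 and 150.1 with olaparib and 117, 121, 122 and 138 with MNA. All 4 olaparib libraries were above all other libraries, with a log2 fold change over DMSO of 0.28 ± 0.057 (edgeR adjusted p = 0.00476), while that of MNA was 0.04 ± 0.057 (edgeR adjusted p = 0.570). Dnajb4 read 26.8, 23.8, 20.2 and 30.0 CPM with DMSO, 35, 38.9, 31.7 and 42.8 with olaparib and 32.3, 25.9, 30.7 and 33.7 with MNA. Its log2 fold change was 0.56 ± 0.13 with olaparib (edgeR adjusted p = 0.00961) and 0.28 ± 0.13 with MNA (edgeR adjusted p = 0.113, or 0.0244 without replicate 2).

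Dnajb1, the heat-inducible J protein, was higher with MNA, at 46.7, 47.5 and 52.1 CPM in replicates 1, 3 and 4 and 33.5 CPM in replicate 2, next to 31.3 to 36.6 CPM with DMSO and 37.2 to 40.1 CPM with olaparib. The log2 fold change was 0.39 ± 0.11 with MNA (edgeR adjusted p = 0.0282, or 2.23e-05 without replicate 2) and 0.16 ± 0.11 with olaparib (edgeR adjusted p = 0.314). Dnaja4 was near the limit of detection, at 0.516, 0.654, 0.402 and 0.222 CPM with DMSO, 0.671, 1.06, 0.968 and 1.08 with olaparib and 0.165, 0.394, 0.540 and 0.362 with MNA. It was called with olaparib (log2 fold change 1.08 ± 0.37, edgeR adjusted p = 0.0481), but not with the replicate block (edgeR adjusted p = 0.0518). Of its exons, 44.1% overlap Wdr61 on the other strand, which read 30.5 to 35.1 CPM with DMSO and 31.9 to 38.8 CPM with olaparib.

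The small heat shock proteins, which hold aggregating proteins without ATP, were almost silent. Hspb1, Hspb6 and Hspb7 stayed under 4 CPM in all 12 libraries, and none was called against DMSO in the fit of all libraries. Hspb7 read 1.17, 1.93, 1.41 and 2.0 CPM with DMSO, 3.74, 2.79, 1.89 and 1.25 with olaparib and 0.781, 1.65, 0.772 and 0.362 with MNA, and was called lower with MNA without replicate 2 (edgeR adjusted p = 0.0124). The remaining cytosolic members, among them Dnaja2, Dnajb6, Dnajc2 and Dnajc7, had log2 fold changes between -0.27 (Dnajb2 with olaparib) and 0.18 (Hspb1 with MNA), except for Hspb6 and Hspa1a with MNA (-0.40 and -0.42), and none was called in that fit.

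**Figure D2:**
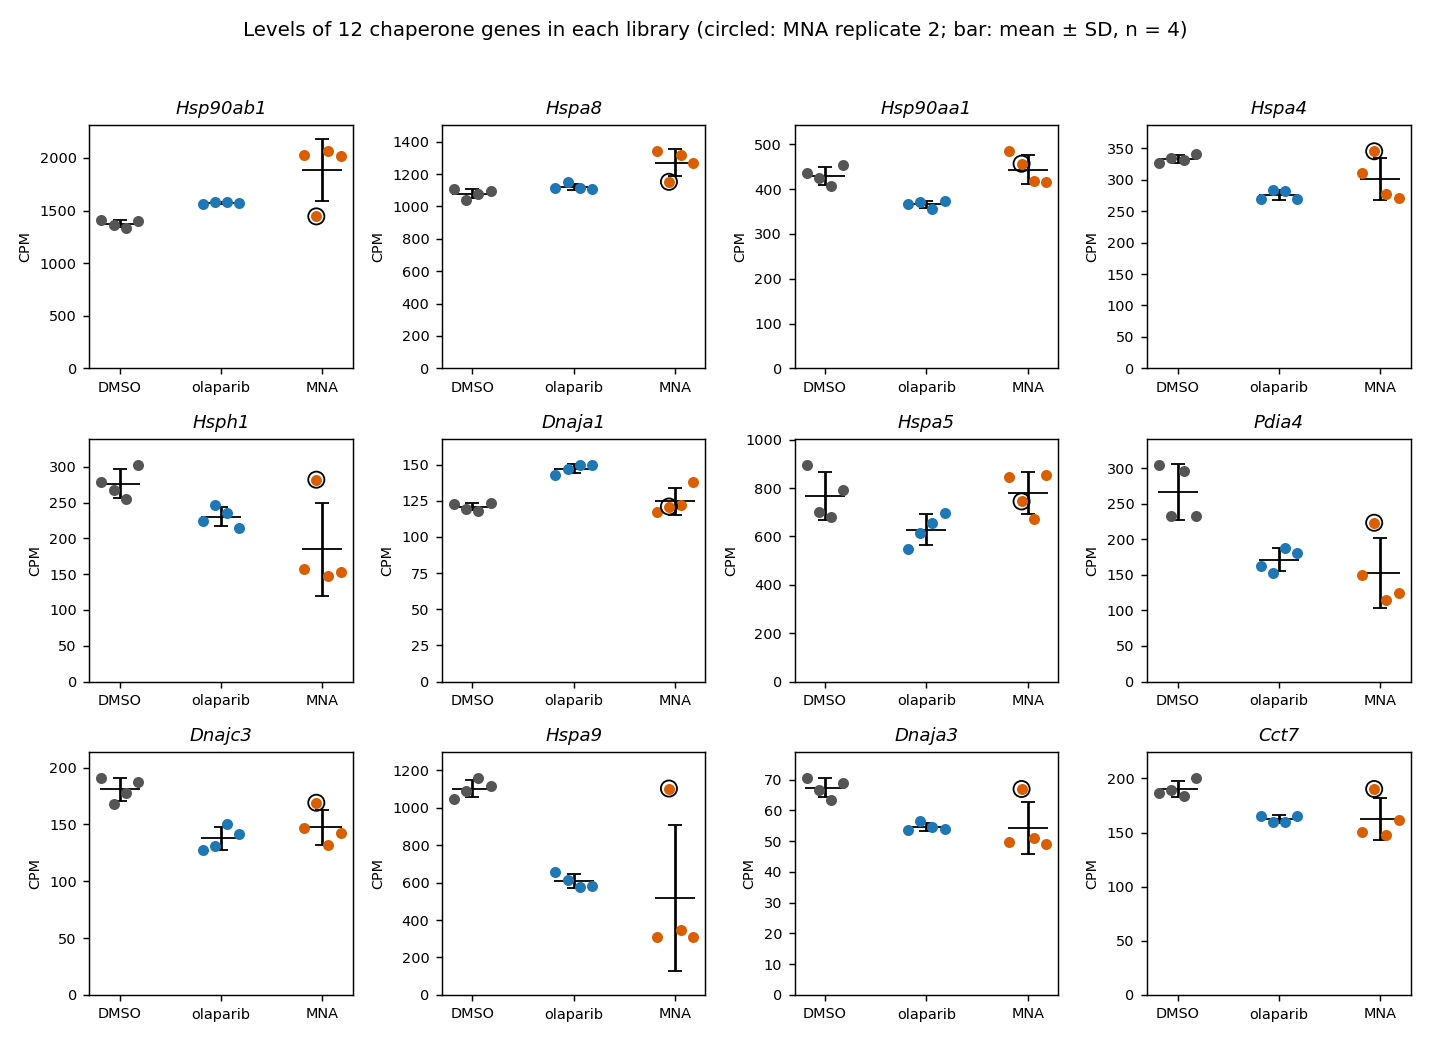
CPM of 12 members in the 4 libraries of each group; each point is a library, bars are the mean ± SD (n = 4), each panel starts at 0, and MNA replicate 2 is circled. Hspa9 is lowest in MNA replicates 1, 3 and 4 and intermediate with olaparib, and Hsp90ab1 shows the reverse order.

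TRiC, the ring-shaped chaperonin that folds actin and tubulin, is represented by 7 members, as its subunit Tcp1 falls outside the naming rule and was counted with the cochaperones. They held 2 calls with olaparib, both falls. All 7 log2 fold changes were negative, between -0.23 and -0.02 with a median of -0.14. Cct5 and Cct7 were called, none rose, and 5 were not called. With MNA, 5 of 7 were negative with a median of -0.12, and Cct7 was called. In the fit of all libraries 12.8% of all genes fell with olaparib and 12.3% with MNA. Without MNA replicate 2 the calls were 4 of 7 lower for olaparib and 4 of 7 lower for MNA, next to 21.2% and 26.9% of all genes.

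Cct5 read 195, 185, 185 and 193 CPM with DMSO, 166, 166, 165 and 164 with olaparib and 177, 195, 186 and 174 with MNA. The olaparib values lay close together and under all other libraries, with a log2 fold change of -0.20 ± 0.052 against DMSO (edgeR adjusted p = 0.0170), and with MNA it was -0.05 ± 0.052 (edgeR adjusted p = 0.465). Cct7 had log2 fold changes of -0.23 ± 0.076 with olaparib and -0.23 ± 0.076 with MNA (edgeR adjusted p = 0.0436 and 0.0436, the latter 3.31e-04 without replicate 2). Cct7 read 184 to 201 CPM with DMSO, 159 to 166 with olaparib and 147 to 162 in MNA replicates 1, 3 and 4, with 190.3 in replicate 2. Tcp1 had log2 fold changes of 0.02 ± 0.072 with olaparib and 0.11 ± 0.072 with MNA (edgeR adjusted p = 0.819 and 0.240), and was chosen after its value was seen. Cct2, the most abundant subunit per length, read 261, 249.8, 239 and 254 CPM with DMSO, 230.2, 229, 220.3 and 229.5 with olaparib and 252, 263, 268 and 258 with MNA. It was just outside the threshold with olaparib (log2 fold change -0.14 ± 0.050, edgeR adjusted p = 0.0511). For Cct6a, 12.5% of the exons overlap Psph on the other strand, and the log2 fold change of Psph was -0.87 with olaparib (edgeR adjusted p = 0.00941). The part of Psph reads in the Cct6a values (121 to 136 CPM with DMSO and 111 to 112 with olaparib) was not tested.

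The 12 members assigned to the ER set held falls and no rises among their calls against DMSO. Dnajb14, a J protein of the ER membrane that rose with olaparib, was counted with the membrane J proteins. Dnajc18, which rose with MNA, was counted there too, and Dnajc1, also of the ER membrane, with the ER set. The absence of rises depends on this split, and in the fit of all libraries 14.3% of all genes rose with olaparib and 16.3% with MNA. With olaparib none rose and 5 fell (Pdia4, Pdia5, Dnajc3, Dnajb9 and Dnajc1), 7 were not called, and 11 of the 12 log2 fold changes were negative with a median of -0.19. With MNA none rose and 2 fell (Pdia4 and Dnajc3), and 8 of 12 were negative with a median of -0.08. In the fit of all libraries 12.8% of all genes fell with olaparib and 12.3% with MNA. In the fit that left out MNA replicate 2, 6 fell with olaparib, where Hspa5 was added, and 5 fell with MNA. Of all genes, 21.2% and 26.9% fell in that fit. The block gave the same 5 calls with olaparib, where 1722 of 12849 genes fell.

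The disulfide isomerases ranged from clear falls to values near 0. Pdia4 (chromosome 6, 47796141 to 47813430) read 305, 233, 296 and 233 CPM with DMSO and 162, 153, 187 and 181 CPM with olaparib. In MNA replicates 1, 3 and 4 it read 149.8, 115 and 124 CPM, and 223 CPM in replicate 2. All treated libraries were below all DMSO libraries. The log2 fold changes were -0.64 ± 0.18 with olaparib (edgeR adjusted p = 0.0234) and -0.80 ± 0.18 with MNA (edgeR adjusted p = 0.0165), and -1.04 for MNA without replicate 2 (edgeR adjusted p = 7.03e-06). Pdia5, a rare isomerase, read 6.98, 6.61, 5.63 and 6.73 CPM with DMSO, 3.11, 4.17, 3.41 and 3.80 with olaparib and 4.40, 7.31, 4.01 and 4.91 with MNA. It had the steepest called fall of the set with olaparib (log2 fold change -0.84 ± 0.18, edgeR adjusted p = 0.00721), and -0.33 ± 0.18 with MNA (edgeR adjusted p = 0.178, or 0.00527 without replicate 2).

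Pdia3, the isomerase of glycoprotein folding and the most abundant of its family, read 551, 456, 480.0 and 503 CPM with DMSO, 450.1, 492, 543 and 549 with olaparib and 591, 479, 508 and 543 with MNA, with groups that overlapped. Its log2 fold changes were 0.03 ± 0.091 (edgeR adjusted p = 0.814) and 0.09 ± 0.091 (edgeR adjusted p = 0.445). Pdia6 had -0.15 ± 0.087 with olaparib and -0.11 ± 0.087 with MNA, neither past the threshold (edgeR adjusted p = 0.205 and 0.361).

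Hspa5, known as BiP and the central Hsp70 of the ER, read 897, 702, 679 and 790.2 CPM with DMSO, 547, 613, 656 and 698 with olaparib and 847, 745, 671 and 853 with MNA. DMSO replicate 1 was the highest library of all, and the highest olaparib library lay above the lowest DMSO library. The log2 fold change with olaparib was -0.29 ± 0.11 (edgeR adjusted p = 0.0758, or 0.0367 without MNA replicate 2), and with MNA 0.02 ± 0.11 (edgeR adjusted p = 0.893). Hsp90b1, the ER Hsp90 also called Grp94, had -0.02 ± 0.10 with olaparib and -0.06 ± 0.10 with MNA (edgeR adjusted p = 0.904 and 0.639).

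J proteins of the ER carried the other 3 calls. Dnajc3, known as p58IPK, read 191, 168, 178 and 187 CPM with DMSO, 128, 131, 151 and 142 with olaparib and 147, 169, 132 and 142 with MNA, with all olaparib libraries below all DMSO libraries. The log2 fold change was -0.39 ± 0.082 with olaparib (edgeR adjusted p = 0.00566) and -0.29 ± 0.082 with MNA (edgeR adjusted p = 0.0252, or 5.99e-04 without replicate 2). Dnajb9, or ERdj4, had -0.32 ± 0.088 with olaparib (edgeR adjusted p = 0.0206) and -0.22 ± 0.088 with MNA (edgeR adjusted p = 0.0770, or 0.0448 without replicate 2). All its treated libraries (32.6 to 40.6 CPM with olaparib and 35.1 to 41.7 with MNA) lay below the DMSO libraries (42.7 to 50.6 CPM). Dnajc1 read 76.0, 75.6, 67.2 and 79.3 CPM with DMSO, 62.0, 72.2, 58.1 and 60.8 with olaparib and 71.2, 78.7, 71.3 and 77.3 with MNA. It was called with olaparib (log2 fold change -0.24 ± 0.077, edgeR adjusted p = 0.0401), although olaparib replicate 2 overlapped DMSO, and stood near 0 with MNA (edgeR adjusted p = 0.989). Dnajb11, a soluble BiP partner, stood near 0 with both treatments (edgeR adjusted p = 0.977 and 0.892).

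Promoters of the ER set were read because ER chaperones classically carry the ER stress response element, CCAAT and CCACG separated by 9 bases of any kind. RefSeq promoters of GRCm38.p6, 250 bases before to 50 after each start, were matched for 57 of the 69 members, and both strands were searched. The element occurred in Dnajc3, Hsp90b1, Hspa5 and Pdia6, and in 0.119% of all 32851 promoters. Its second form, ATTGG and CCACG separated by 1 base, occurred in Dnajb11 and in 0.0365% of all promoters. Of these 5 genes, Dnajc3 alone was called in the fit of all libraries. The 250 bases before the start of the 3 genes that span this range, uncalled Hspa5 and Hsp90b1 and called Dnajc3, are shown with the element in capitals. Hspa5 lies at chr2:34771840-34772089 on the plus strand, Hsp90b1 at chr10:86705445-86705694 on the minus strand and Dnajc3 at chr14:118937682-118937931 on the plus strand, and each run ends at the base before the start.
Hspa5: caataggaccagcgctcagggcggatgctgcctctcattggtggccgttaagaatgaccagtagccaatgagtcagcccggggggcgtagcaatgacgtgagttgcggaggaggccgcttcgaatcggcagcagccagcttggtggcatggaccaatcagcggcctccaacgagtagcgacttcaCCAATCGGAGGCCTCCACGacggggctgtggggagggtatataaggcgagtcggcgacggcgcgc
Hsp90b1: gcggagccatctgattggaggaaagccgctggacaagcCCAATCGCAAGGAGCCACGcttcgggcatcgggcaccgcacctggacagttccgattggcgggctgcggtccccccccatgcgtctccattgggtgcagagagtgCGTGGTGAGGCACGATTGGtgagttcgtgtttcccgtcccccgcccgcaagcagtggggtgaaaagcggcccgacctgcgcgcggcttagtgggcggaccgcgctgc
Dnajc3: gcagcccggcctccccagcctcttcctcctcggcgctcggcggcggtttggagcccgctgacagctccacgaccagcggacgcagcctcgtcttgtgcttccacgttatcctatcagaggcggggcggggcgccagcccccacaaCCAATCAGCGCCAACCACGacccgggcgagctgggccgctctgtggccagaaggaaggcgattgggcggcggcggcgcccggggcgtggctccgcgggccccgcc
The element began 65 bases before the start in Hspa5, 105 in Dnajc3 and 98 in Pdia6, and Hsp90b1 held it on both strands, at 212 and 107. A match describes these letters only.

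Outside the 69, a list of 33 genes of ER folding and the unfolded protein response, 32 of them tested, was read in the same way. With olaparib 15 fell and 1 rose (Erp29), with a median log2 fold change of -0.23 against 0.004 for all genes. With the replicate block 10 fell and 1 rose, where 1722 and 1974 of 12849 genes did so. With MNA 6 fell and 1 rose (Sil1), with a median of -0.11. In the fit of all libraries 12.8% of all genes fell and 14.3% rose with olaparib, and 12.3% fell and 16.3% rose with MNA. With MNA replicate 2 left out, 16 fell and 2 rose with olaparib, and 11 fell and 5 rose with MNA. Of all genes, 21.2% fell and 22.5% rose with olaparib in that fit, and 26.9% fell and 27.2% rose with MNA. Txndc5, a further disulfide isomerase, read 104, 96.5, 99.5 and 100.4 CPM with DMSO, 75.1, 78.4, 77.1 and 77.3 with olaparib and 93.4, 96.7, 86.8 and 96.4 with MNA. Its log2 fold change was -0.38 ± 0.051 with olaparib (edgeR adjusted p = 5.44e-04) and -0.10 ± 0.051 with MNA (edgeR adjusted p = 0.136).

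The sensor Ern1, known as IRE1 alpha, read 141, 169, 206 and 178 CPM with DMSO, 95.6, 91.2, 95.7 and 87.5 with olaparib and 98.1, 161, 105 and 104 with MNA. Its log2 fold changes were -0.91 ± 0.15 with olaparib and -0.57 ± 0.15 with MNA (edgeR adjusted p = 0.00191 and 0.0224), the latter -0.76 without replicate 2. Herpud1, an ER stress gene of protein degradation, read 77.3, 70.6, 74.3 and 77.1 CPM with DMSO, 45.4, 38.2, 37.6 and 42.2 with olaparib and 30.4, 65.3, 27.2 and 23.7 with MNA. It had -0.87 ± 0.25 and -1.03 ± 0.25 (edgeR adjusted p = 0.0236 and 0.0189), the latter -1.47 without replicate 2. Sec63, a J protein of the import channel, had -0.27 ± 0.082 and -0.32 ± 0.082 (edgeR adjusted p = 0.0299 and 0.0206, the latter 1.72e-05 without replicate 2). All 3 were lower with both treatments. Among the other sensors and their factors, those called with olaparib and not with MNA were Atf6 (-0.30 ± 0.064, edgeR adjusted p = 0.00613) and Xbp1 (-0.31 ± 0.081, edgeR adjusted p = 0.0152), with -0.05 and -0.12 for MNA (edgeR adjusted p = 0.322 and 0.105 without replicate 2), while Eif2ak3 was not called (log2 fold change -0.13 ± 0.070). Atf6 and Xbp1 were chosen after their values were seen, as were Hyou1, the ER Hsp110 (-0.43 ± 0.090, edgeR adjusted p = 0.00575), and P4hb, the founding disulfide isomerase (-0.32 ± 0.088, edgeR adjusted p = 0.0206). In the direct contrast of olaparib with MNA, 2 of the 32 were lower with olaparib, Txndc5 (log2 difference -0.28 ± 0.051) and Atf6 (-0.25 ± 0.064, edgeR adjusted p = 0.00299 and 0.0170), and Erp29 was higher (0.44 ± 0.079, edgeR adjusted p = 0.00258). Xbp1 missed the threshold (-0.19 ± 0.081, edgeR adjusted p = 0.106). In that contrast 10.9% of all genes were called in each direction. When MNA replicate 2 was omitted, 5 of the 32 were higher and 7 lower with olaparib, Herpud1 and Sec63 among the former and Atf6 among the latter. Of all genes, 21.5% were higher and 20.7% lower.

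**Figure D3:**
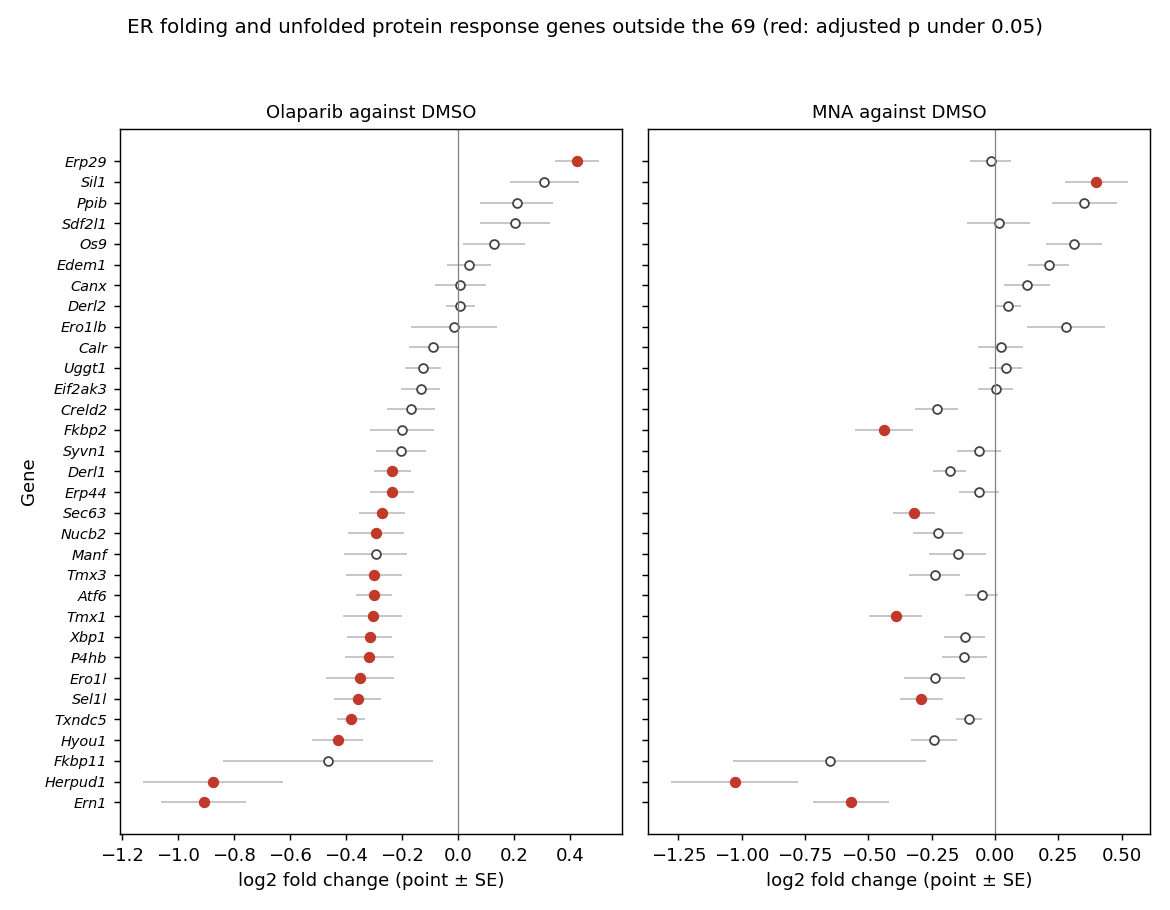
Log2 fold change (point ± SE, x axis) of the 32 tested ER folding and unfolded protein response genes outside the 69 members, ordered by their value with olaparib; red points have an adjusted p under 0.05. With olaparib 15 red points lie left of 0 and 1 right of it, with MNA 6 and 1.

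Cytosolic and ER chaperones were then compared with each other. The median log2 fold change of the cytosolic chaperones exceeded that of the ER chaperones by 0.20 with olaparib and by 0.10 with MNA. With TRiC counted as cytosolic these differences of medians were 0.12 and 0.05. On another measure, the cytosolic minus ER mean of log2 CPM in each library, groups averaged -1.98 with DMSO, -1.67 with olaparib and -1.86 with MNA. The SD of that measure within groups was 0.0965, which is not an error of the differences of medians. No test was made over the lists, because their members were chosen with results known.

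The summed CPM of the cytosolic chaperones divided by that of the ER chaperones was 1.37, 1.6, 1.56 and 1.58 with DMSO. With olaparib it was 1.94, 1.83, 1.67 and 1.64, and with MNA 1.80, 1.69, 2.08 and 1.81. Every treated library, MNA replicate 2 included, lay above every DMSO library. With each gene given equal weight, the cytosolic minus ER mean of log2 CPM was -2.11 to -1.84 with DMSO and -1.73 to -1.57 with olaparib, which did not overlap, and -1.95 to -1.73 with MNA, which overlapped DMSO. The sums behind the ratio overlapped more. Cytosolic transcripts summed to 4052 to 4285 CPM with DMSO, 4213 to 4332 with olaparib and 4358 to 4973 with MNA. ER transcripts summed to 2560.4 to 3097 CPM, 2171 to 2595 and 2359 to 2757, so that only the cytosolic sum with MNA was free of overlap with DMSO.

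A few genes carried these sums. Without Hsp90ab1 and Hspa8 the ratio was 0.553 to 0.663 with DMSO and 0.573 to 0.682 with MNA, which overlapped, and 0.610 to 0.708 with olaparib. Without Hspa5 and Pdia4 it was 2.23 to 2.53 with DMSO, 2.49 to 2.88 with olaparib and 2.70 to 3.11 with MNA, so that olaparib now overlapped DMSO and MNA did not. MNA was thus separate from DMSO only with Hsp90ab1 and Hspa8 in the sum, and olaparib only with both pairs in it.

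**Figure D4:**
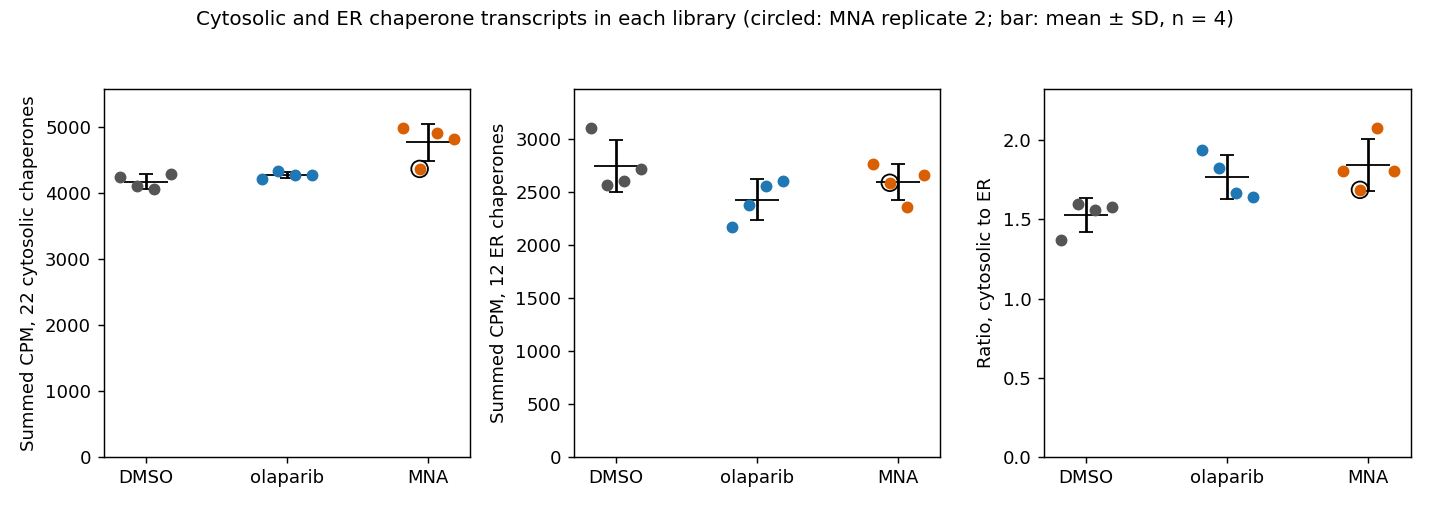
Summed CPM of the 22 cytosolic chaperones (left) and of the 12 ER chaperones (middle) and their ratio (right) in the 4 libraries of each group; points are libraries, bars the mean ± SD (n = 4), axes start at 0, and MNA replicate 2 is circled. The ratio is at most 1.6 with DMSO and at least 1.64 in the treated libraries.

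The mitochondrial chaperones held the steepest fall of the set with MNA. Hspa9, also called mortalin, which pulls proteins into the mitochondrial matrix, read 1046, 1091, 1160.1 and 1115 CPM with DMSO and 656, 616, 577 and 579.8 CPM with olaparib. In MNA replicates 1, 3 and 4 it read 311, 346 and 312 CPM, and in MNA replicate 2 it read 1103 CPM. All olaparib libraries were below all DMSO libraries, the 3 MNA libraries were lower still, and MNA replicate 2 lay inside the DMSO range. With MNA the log2 fold change was -1.09 ± 0.35 (edgeR adjusted p = 0.0368), and -1.77 ± 0.069 without replicate 2 (edgeR adjusted p = 8.05e-10). With olaparib it was -0.86 ± 0.34, not past the threshold in the fit of all libraries (edgeR adjusted p = 0.0808) and past it without MNA replicate 2 (edgeR adjusted p = 2.41e-07).

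Of the 10 mitochondrial members, Dnaja3 fell with olaparib and Hspa9 and Dnaja3 fell with MNA, and none rose. In the fit of all libraries 12.8% of all genes fell with olaparib and 12.3% with MNA, while 14.3% and 16.3% rose. Without MNA replicate 2, 3 fell with olaparib and 4 with MNA, next to 21.2% and 26.9% of all genes. Dnaja3, the J protein known as Tid1 that works with Hspa9, read 70.6, 66.6, 63.6 and 69 CPM with DMSO, 53.6, 56.6, 54.6 and 53.8 with olaparib and 49.8, 67.0, 51.1 and 49.1 with MNA. Its log2 fold change was -0.30 ± 0.090 with olaparib (edgeR adjusted p = 0.0283) and -0.31 ± 0.091 with MNA (edgeR adjusted p = 0.0279, or 9.91e-06 without replicate 2). The 10 mitochondrial members summed to 1615 to 1660.4 CPM with DMSO, 1077 to 1153 with olaparib, and 743 to 829 in MNA replicates 1, 3 and 4, with 1633 in replicate 2. Without Hspa9 the sums were 500.3 to 569 CPM, 497 to 501 CPM and 432 to 483 CPM, so that olaparib overlapped DMSO and these 3 MNA libraries did not.

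Hspd1, the Hsp60 barrel, read 287, 269, 263 and 266 CPM with DMSO, 240.2, 239.9, 240.0 and 238 with olaparib and 217, 283, 225 and 224 with MNA. It was not called (log2 fold change -0.18 ± 0.079 with olaparib and -0.19 ± 0.079 with MNA, edgeR adjusted p = 0.109 and 0.0810), and was called lower in both without MNA replicate 2 (edgeR adjusted p = 0.00713 and 3.05e-04). Its lid Hspe1, the Hsp10, read 88.7, 80.9, 65.4 and 65.1 CPM with DMSO, 89.2, 89.1, 93.8 and 94.3 with olaparib and 62.0, 68.7, 96.2 and 90.5 with MNA. Hspe1 was higher in all olaparib libraries than in all DMSO libraries, with a log2 fold change of 0.29 ± 0.14 (edgeR adjusted p = 0.139), so the uncalled values of the barrel and its lid had opposite signs. Other genes share 53.1% of Hspd1 words and 30.5% of Hspe1 words, for Hspd1 mainly its pseudogene Hspd1-ps3, which limits both values.

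Hspd1 and Hspe1 lie head to head on opposite strands and their annotated ends overlap, over 4.20% of the exons of Hspd1 and 7.60% of those of Hspe1, and the part of shared reads in their values was not tested. Heat shock factor binds inverted GAA units, and 3 units (GAA, TTC and GAA, each separated by 2 bases) were searched on both strands of the 57 promoters. They occurred in Hspd1, Hspe1, Hsph1 and Dnajb6, and in 0.603% of all promoters. In Hsph1 they lay after the start. Hspe1 and Hspd1 each held 2 overlapping matches of the same stretch. The 250 bases before the start of Hspe1, at chr1:55087898-55088147 on the plus strand, are shown because they hold the stretch matched in both chaperonin genes, in capitals.
Hspe1: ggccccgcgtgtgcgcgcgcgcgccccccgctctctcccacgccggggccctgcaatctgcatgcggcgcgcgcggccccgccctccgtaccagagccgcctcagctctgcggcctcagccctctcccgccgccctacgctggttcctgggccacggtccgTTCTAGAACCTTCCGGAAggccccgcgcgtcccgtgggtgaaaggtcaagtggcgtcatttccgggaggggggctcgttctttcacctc
In the fit of all libraries none of these 4 genes was called with olaparib, and Hsph1 alone was called with MNA, as a fall. Without MNA replicate 2, Hsph1 and Hspd1 were called lower with both treatments.

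Of 12 other genes of mitochondrial folding and proteolysis, 1 rose (Clpx) and 1 fell (Lonp1) with olaparib, and 1 rose (Spg7) and 4 fell (Clpp, Lonp1, Grpel1 and Afg3l2) with MNA. In the fit of all libraries 14.3% of all genes rose and 12.8% fell with olaparib, and 16.3% and 12.3% with MNA. With MNA replicate 2 left out, 3 rose and 2 fell with olaparib, and 3 rose and 5 fell with MNA. Of all genes, 22.5% rose and 21.2% fell with olaparib in that fit, and 27.2% and 26.9% with MNA. Lonp1, the matrix protease, read 128, 137, 126 and 134 CPM with DMSO, 83.4, 84.8, 73.6 and 79.8 with olaparib and 69.8, 133, 69.5 and 69.3 with MNA. Its log2 fold changes were -0.71 ± 0.18 with olaparib and -0.62 ± 0.18 with MNA (edgeR adjusted p = 0.0146 and 0.0283), the latter -0.92 without replicate 2. Clpx, the unfoldase of the Clp protease, had 0.18 ± 0.061 with olaparib and its partner Clpp -0.42 ± 0.11 with MNA (edgeR adjusted p = 0.0495 and 0.0216). Spg7, a protease of the inner membrane, had 0.26 ± 0.071 with MNA (edgeR adjusted p = 0.0232). Grpel1, the nucleotide exchange factor of Hspa9, stood at -0.07 ± 0.13 with olaparib and -0.48 ± 0.14 with MNA (edgeR adjusted p = 0.728 and 0.0262).

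**Figure D5:**
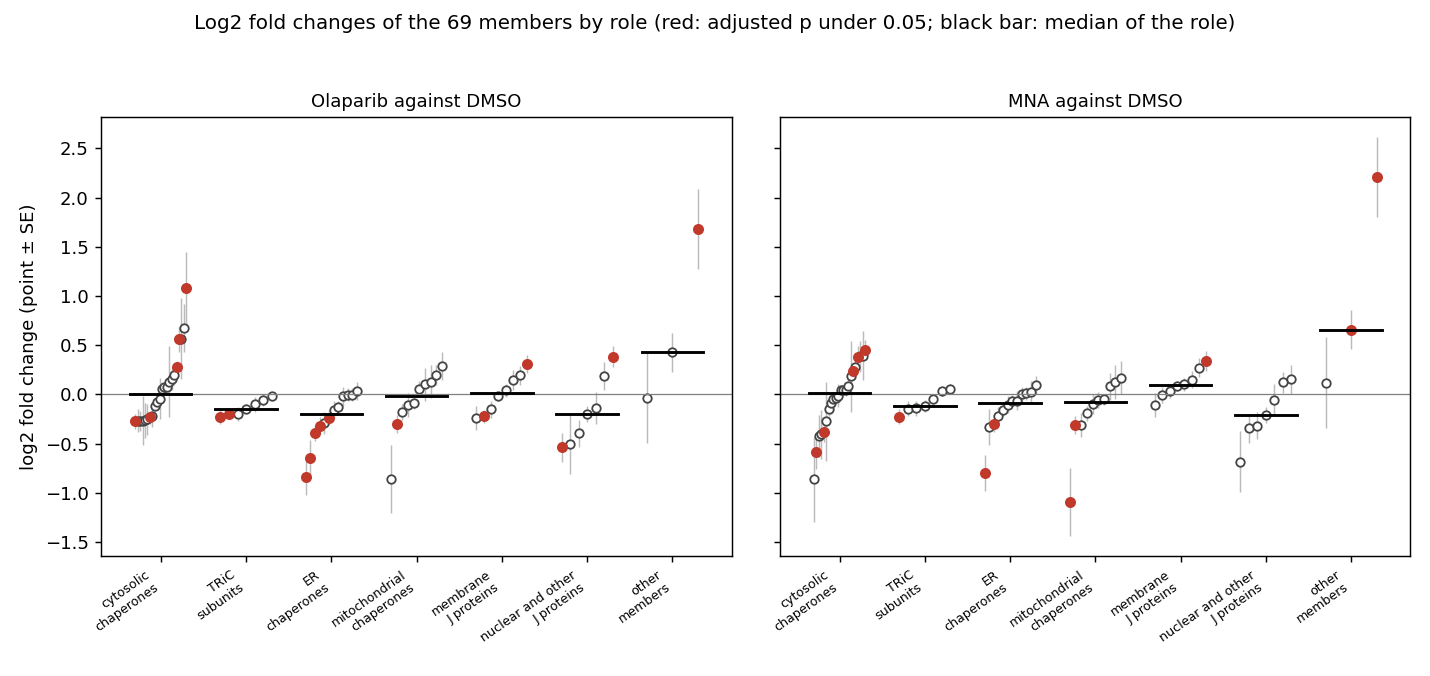
Log2 fold change (point ± SE, y axis) of each of the 69 members by role (x axis), with olaparib (left) and with MNA (right) against DMSO in the fit of all 12 libraries; red points have an adjusted p under 0.05 and black bars are the medians of the roles. The ER bar lies at -0.19 with olaparib and -0.08 with MNA, the cytosolic bar at 0.01 in both, and the highest point in both panels is Dnajb13.

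The J proteins of membranes and of the nucleus were mixed. Of 8 membrane members, Dnajb14 rose and Dnajc13 fell with olaparib, and Dnajc18 rose with MNA. In that fit of all libraries 14.3% of all genes rose and 12.8% fell with olaparib, and 16.3% rose with MNA. Dnajb14, an ER membrane J protein, had a log2 fold change of 0.31 ± 0.089 with olaparib (edgeR adjusted p = 0.0251). Dnajc13, of endosomes, read 141, 145, 159 and 154 CPM with DMSO, 123, 130.3, 136 and 125 with olaparib and 174, 151, 146 and 144 with MNA. It had -0.22 ± 0.070 with olaparib (edgeR adjusted p = 0.0351, or 0.0567 with the block). Dnajc18 read 16.5, 18.3, 17.4 and 20.3 CPM with DMSO, 21.2, 19.4, 21.6 and 20.9 with olaparib and 24.9, 18.8, 23.5 and 24.9 with MNA, and its log2 fold change with MNA was 0.34 ± 0.10 (edgeR adjusted p = 0.0279, or 4.18e-04 without replicate 2).

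The most abundant membrane members per length did not differ past the threshold. Dnajc5, the cysteine string protein, read 193, 195, 205 and 203 CPM with DMSO, 193, 203, 224 and 198 with olaparib and 227, 195, 214 and 219.6 with MNA. Dnajb12 read 64.5, 69.4, 67.4 and 69.9 CPM with DMSO, 68.8, 68.0, 67.3 and 64.0 with olaparib and 73.1, 68.6, 74.4 and 70.9 with MNA. Their largest log2 fold change against DMSO was 0.10 ± 0.065, for Dnajc5 with MNA (edgeR adjusted p = 0.227).

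Of 7 nuclear and other J proteins, Dnajc9, a histone chaperone, rose with olaparib (0.38 ± 0.11, edgeR adjusted p = 0.0214) and Dnajc21, a factor of ribosome assembly, fell. Dnajc21 read 22.4, 22.9, 21.4 and 20.7 CPM with DMSO, 16.5, 15.2, 14.5 and 14.0 with olaparib and 12.3, 22.6, 18.3 and 15.6 with MNA, with a log2 fold change of -0.54 ± 0.15 with olaparib (edgeR adjusted p = 0.0198). None of the 7 was called with MNA in the fit of all libraries, where 16.3% of all genes rose and 12.3% fell. Without replicate 2, 4 were called lower, next to 26.9% of all genes. The most abundant per length were Dnajc8, of the spliceosome, and Dnajc24, of diphthamide synthesis. Dnajc8 read 107, 108, 113 and 113 CPM with DMSO, 98.2, 93.8, 91.8 and 99.6 with olaparib and 86.7, 115, 91.4 and 88.8 with MNA. Dnajc24 read 10.5, 11.4, 10.6 and 10.7 CPM with DMSO, 9.26, 7.43, 7.99 and 8.12 with olaparib and 7.90, 11.4, 7.02 and 8.28 with MNA. Both had olaparib libraries under all DMSO libraries, with log2 fold changes of -0.20 ± 0.082 and -0.40 ± 0.14 that missed the threshold (edgeR adjusted p = 0.0866 and 0.0502). Dnajc17, of splicing, had the lowest uncalled value with MNA among the 7, -0.68 ± 0.31 (edgeR adjusted p = 0.105), and was called without replicate 2 (-1.23, edgeR adjusted p = 2.80e-05).

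The steepest rises were those of Dnajb13, a J protein of motile cilia and sperm. It read 1.45, 1.34, 0.905 and 1.30 CPM with DMSO, 3.92, 4.17, 4.29 and 3.59 with olaparib and 7.16, 1.43, 7.87 and 6.60 with MNA. All olaparib libraries lay above all DMSO libraries, and MNA replicate 2 lay inside the range of DMSO. The log2 fold change was 1.68 ± 0.41 with olaparib (edgeR adjusted p = 0.0115) and 2.20 ± 0.41 with MNA (edgeR adjusted p = 0.0142), and 2.53 without replicate 2. Of its exons, 11.2% overlap Ucp2, an uncoupling protein gene on the other strand with far more reads. Ucp2 read 931, 797, 847 and 878 CPM with DMSO, 1319, 1446, 1565 and 1456 with olaparib and 1745, 815, 1603 and 1625 with MNA, with log2 fold changes of 0.75 ± 0.19 and 0.75 ± 0.19 (edgeR adjusted p = 0.0129 and 0.0194). The part of Ucp2 reads in the Dnajb13 values was not tested.

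Hspb11, a subunit of intraflagellar transport that carries a heat shock name, read 3.66, 3.23, 3.25 and 2.95 CPM with DMSO, 5.44, 4.60, 3.91 and 3.62 with olaparib and 4.81, 3.55, 6.56 and 5.75 with MNA. It was called with MNA (log2 fold change 0.66 ± 0.20, edgeR adjusted p = 0.0298, or 0.00118 without replicate 2) and not with olaparib (0.43 ± 0.20, edgeR adjusted p = 0.121). Hspb9, of testis, stayed near 1 CPM or less.

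Olaparib and MNA were also compared directly. In the fit of all libraries 3 members were higher with olaparib (Dnaja1, Dnaja4 and Hspb7) and 5 were lower (Hsp90aa1, Hspa2, Cct2, Dnajc13 and Dnajc1), next to 10.9% of all genes in each direction. Log2 differences are olaparib minus MNA. Hsp90aa1 differed by -0.28 ± 0.065 (edgeR adjusted p = 0.0113), Dnaja1 by 0.24 ± 0.057 (edgeR adjusted p = 0.0120) and Cct2 differed by -0.20 ± 0.050 (edgeR adjusted p = 0.0163). Hspa2 differed by -0.64 ± 0.16 and Dnajc1 by -0.24 ± 0.077 (edgeR adjusted p = 0.0149 and 0.0453). The low Hspb7 and Dnaja4 differed by 1.43 ± 0.43 and 1.35 ± 0.38 (edgeR adjusted p = 0.0333 and 0.0249). In this contrast the medians of cytosolic and ER chaperones lay 0.04 apart.

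Without MNA replicate 2, 10 members were higher and 13 lower with olaparib, next to 21.5% and 20.7% of all genes. Hspa9 then differed by 0.91 ± 0.067 (edgeR adjusted p = 2.33e-07), Hsph1 by 0.60 ± 0.069 (edgeR adjusted p = 1.29e-05) and Pdia4 by 0.40 ± 0.12 (edgeR adjusted p = 0.0146), all lower with MNA. Hsp90ab1 (-0.37 ± 0.048, edgeR adjusted p = 3.39e-05), Hspa8 (-0.22 ± 0.050, edgeR adjusted p = 0.00256) and Hspa5 (-0.33 ± 0.11, edgeR adjusted p = 0.0285) were higher with MNA.

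Heat shock factors and the cochaperones of Hsp70 and Hsp90, a list of 31 genes, held few calls. With olaparib 2 rose (Hsbp1 and Pfdn5) and 3 fell (Chordc1, Fkbp4 and Bag6), with a median log2 fold change of -0.07, and with the replicate block 3 rose and 5 fell. With MNA 3 rose (Vbp1, Tomm34 and Unc45a), none fell, and the median was -0.07. In the fit of all libraries 14.3% of all genes rose and 12.8% fell with olaparib, and 16.3% and 12.3% with MNA. The block called 1974 of 12849 genes up and 1722 down with olaparib. With MNA replicate 2 set aside, 4 rose and 8 fell with olaparib, and 6 rose and 9 fell with MNA. Of all genes, 22.5% rose and 21.2% fell with olaparib in that fit, and 27.2% and 26.9% with MNA. Chordc1, an Hsp90 cochaperone, read 66.0, 64.9, 67.0 and 75.9 CPM with DMSO, 50.1, 49.0, 49.8 and 50.7 with olaparib and 53.5, 70.6, 51.0 and 50.9 with MNA, and its log2 fold change with olaparib was -0.46 ± 0.10 (edgeR adjusted p = 0.00670). Fkbp4, an immunophilin of Hsp90, had -0.57 ± 0.13 (edgeR adjusted p = 0.00862). Vbp1, a prefoldin subunit that feeds TRiC, had 0.49 ± 0.12 with MNA (edgeR adjusted p = 0.0183), and Tomm34 had 0.34 ± 0.089 (edgeR adjusted p = 0.0213). The factor Hsf1 itself had -0.23 ± 0.090 with olaparib and -0.10 ± 0.090 with MNA (edgeR adjusted p = 0.0749 and 0.387), and was chosen after its value was seen.

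Many of these calls were lost when 1 library was left out of the fit, and the part of the smaller number of libraries in this was not tested. Of the 18 members called with olaparib, 6 were called whichever library was left out (Dnajc3, Pdia5, Cct5, Dnaja1, Dnajb4 and Dnajb13). Leaving out DMSO replicate 4 lost the most, 10 of 18, with a highest adjusted p of 0.124, and leaving out any other DMSO or olaparib library lost 5 to 8. Of the 13 called with MNA, Dnajb13 alone was called throughout. Without MNA replicate 3 or MNA replicate 4, 12 of 13 were lost (highest adjusted p 0.134 and 0.105), and 6 to 10 of 13 without a DMSO library or MNA replicate 1. Without an olaparib library, 1 or 2 of them were lost (Cct7 and Hspa9), and without MNA replicate 4 the olaparib contrast lost 2 (Cct7 and Dnaja4). Of the 8 called between the treatments, Hsp90aa1, Dnaja1 and Hspa2 held throughout, and up to 4 were lost, without MNA replicate 1. Without MNA replicate 2 no call of any contrast was lost, and no log2 fold change of a called member changed sign when any library was left out.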

How the data were processed

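RNA of 12 libraries (DMSO, olaparib and MNA, 4 each) was sequenced with a stranded mRNA kit. Per the labels, the authors aligned reads with STAR 2.5.2b and deposited whole-number counts per Ensembl gene. The build was GRCm38, and which of STAR's strand columns was used is not given in the sources used here, so reads of overlapping genes on opposite strands may be mixed. Depth was 21146291 to 31446849 counts per library, which limits genes of a few CPM most.

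Counts as deposited were filtered (filterByExpr, minimum count 10, minimum total 15) and tested with edgeR 4.0.16 (quasi-likelihood, TMM, R 4.3.3) in 1 fit of all groups. P-values were Benjamini-Hochberg adjusted over 12849 genes with a threshold of 0.05. They measure only the spread between these libraries. The fit was also tried on simulated counts with an equal dispersion for all genes, no deviating library and larger changes than most here. That trial does not show how well smaller changes are found in these data. Labels give the groups and replicate numbers. Alternatives were DESeq2 1.42.0, RLE scaling, other filters, a threshold of 0.01, fits of 2 groups, each library left out, and the replicate number as a block. Olaparib and DMSO libraries of the same number deviated together (r = 0.227, 0.172, 0.225 and 0.408, all over 0.1), and the methods name 4 donor mice. The number was therefore used as a block in an alternative fit, while the main fit did not pair libraries. For MNA and DMSO not all same-numbered libraries deviated together (r = -0.0094 for replicate 3). Deviations were taken from group means, and that of MNA included replicate 2, so these values cannot show that pairing was absent. The labels do not say whether the number marks the donor.

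Members and gene lists were chosen with earlier results of these data known. Named genes were the 2 members of highest RPKM per role, the 8 of smallest p and the 3 most raised and 3 most lowered called members per contrast, and the 2 of smallest p per other list and contrast with DMSO. Other members named carry a call or a role in the text and were chosen after their values were seen. Exon lengths, overlaps and shared 31-base words came from GENCODE M21 (GRCm38), and promoters from RefSeq (GRCm38.p6).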

Additional observations from a re-analysis of the deposited data

Results flagged for a closer look

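In groups of 4 libraries, a library was singled out where its gap to the nearest other, divided by the range of the group, exceeded Dixon's 95% critical value. Of 177 groups tested 17 passed, where chance gives about 1 in 20, and 13 of these were MNA replicate 2. That library stood far from the other MNA libraries, on the side of DMSO, for Hsp90ab1 (1445 CPM, others 2017 to 2064), Hspa9 (1103 CPM, others 311 to 346), Hsph1 (282 CPM, others 147 to 157) and Hspd1 (283 CPM, others 217 to 225). The same held for Dnajc8 (115 CPM), Dnaja3 (67.0 CPM), Chordc1 (70.6 CPM), Ern1 (161 CPM), Herpud1 (65.3 CPM) and Lonp1 (133 CPM). It also held for the mean log2 CPM of TRiC (7.53), the summed CPM of TRiC (1318, others 1178 to 1180) and the summed CPM of the mitochondrial chaperones (1633).

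The other 4 were olaparib replicate 3 for Cct2 (220.3 CPM, lowest), olaparib replicate 2 for Hspa8 (1150.4 CPM, highest), olaparib replicate 4 for Hspd1 (238 CPM, lowest) and DMSO replicate 1 for the ratio of cytosolic to ER chaperones (1.37, others 1.56 to 1.6).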

How the results depend on the processing

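Counts of called members depended on which libraries shared the estimate of the spread. Fitted with DMSO alone, 11 members rose and 24 fell with olaparib, next to 22.9% and 22.5% of all genes. With MNA none rose or fell by edgeR in such a fit, where 0 of 12379 genes were called. There 4728 genes and 7 positive and 10 negative members had an unadjusted p under 0.05. DESeq2 in the fit of all libraries called 7 up and 7 down with MNA, next to 18.9% and 15.7% of all genes. At a threshold of 0.01, 2 rose and 2 fell with olaparib, and 0 with MNA or between treatments in either direction. Calls over all genes were not counted at that threshold. MNA replicate 2 left out together with the replicate block, an alternative chosen after the data were seen, gave 10 up and 24 down for olaparib, 11 and 22 for MNA, and 10 and 12 for olaparib against MNA. Over all 13023 genes of that fit, 3154 were up and 2962 down for olaparib, and 3618 and 3547 for MNA. For olaparib against MNA the numbers were 2952 and 2790. In that last contrast DESeq2 called 11 down, next to 1716 of 12849 genes, and the fit with no filter on low counts 3.

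Leaving out 1 library at a time gave 3 to 11 up and 5 to 23 down for olaparib, 1 to 10 up and 0 to 22 down for MNA, and 1 to 10 up and 3 to 13 down between treatments. The 0 came without MNA replicate 3 or MNA replicate 4, where 9 had an unadjusted p under 0.05, and the upper ends came without MNA replicate 2. Shares over all genes without MNA replicate 2 are given above, and for the other libraries left out they were not counted. The cytosolic minus ER difference ranged from 0.17 to 0.24 for olaparib, 0.07 to 0.15 for MNA and 0.01 to 0.10 between treatments, where it turned to -0.022 over the 42 members with a mean of at least 1000 counts, an alternative also chosen after the data were seen. The replicate block gave 6 up and 11 down for olaparib, with Dnaja4 (edgeR adjusted p = 0.0518) and Dnajc13 (edgeR adjusted p = 0.0567) lost and Hspa1b (edgeR adjusted p = 0.0205) gained, and changed no other call of a member in that contrast. Over all 12849 genes it called 1974 up and 1722 down. For MNA against DMSO, same-numbered libraries did not all deviate together, and for olaparib against MNA all r were positive, the lowest 0.0696. With MNA the block gave 7 up and 7 down, next to 2184 and 1984 of 12849 genes. Between treatments it gave 4 up and 5 down, next to 1502 and 1350. No named member changed sign in any contrast where it was called.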
